A study of Mus musculus with 12 samples.

Results

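Aminoacyl-tRNA synthetases charge each tRNA with its amino acid, and their mRNAs were measured here in mouse leukemia cells with or without an allele switch that stabilizes β-catenin, and with or without editing of the genes of the B cell transcription factors Ikaros (Ikzf1) and Aiolos (Ikzf3). Members were taken by gene symbol: any symbol made of 1 capital letter and ars, with or without a closing 1 or 2, together with Eprs, Farsa, Farsb, Aimp1, Aimp2 and Eef1e1. This gave 40 of the 12151 genes in the table. By their known place in the cell, 11 belong to the cytosolic multisynthetase complex (8 enzymes and 3 scaffold proteins), 12 are free cytosolic synthetase genes and 17 are mitochondrial.

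All 12 libraries came from pre-B cells of mice aged 6 to 12 weeks, transformed with BCR-ABL1, which models human B-ALL, an acute leukemia of B cell precursors. Every group carried Ctnnb1Ex3fl/+, 1 copy of the β-catenin gene in which Cre removes the exon with the phosphorylation sites that mark the protein for degradation. WT cells had received nontargeting guides (sgNTC), and KO cells had received Cas9 ribonucleoproteins with guides against Ikzf1 and Ikzf3. Lines were derived from single cells, so a WT to KO difference and a difference between clones cannot be told apart. Each background then carried a vector for ERT2 alone, the control, or for Cre-ERT2, whose Cre is switched on by 4-hydroxytamoxifen (4-OHT), and GFP+ cells were sorted. The same protocol, which gives day 1 after 4-OHT but was worded for chromatin work, is attached to all 12 libraries, and it does not say separately whether the ERT2 controls received the drug. Crossing vector and background made 4 groups, named here by both (for example Cre-ERT2 KO), with 3 libraries in each. The labels do not say whether replicates were separate lines, cultures or days, so p-values measure only the spread between these libraries, which may be technical. Values are the log2 expression values that the authors normalized between libraries, and a difference of 2 log2 values is called a change.

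A synthetase activates its amino acid with ATP and joins it to the matching tRNA, and the 2 structural classes of the enzymes differ in the fold of the catalytic domain. In animal cells several cytosolic enzymes are held together by Aimp1, Aimp2 and Eef1e1, while mitochondria import a largely separate set encoded by nuclear genes. When a tRNA is left uncharged, the kinase Gcn2 (Eif2ak4) phosphorylates the initiation factor eIF2, which favours translation of the transcription factor Atf4, and many cytosolic synthetase genes are known Atf4 targets. Atf4 binds with C/EBP proteins to a composite site in which parts of an ATF and of a C/EBP site are joined, and Myc binds the E-box, whose core is CACGTG.

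Because most called members changed in the same direction in the comparisons below, the promoter windows of the members were searched for these letters. A RefSeq window (GRCm38.p6, 250 bases before to 50 after the annotated start, 300 in all) was present for 30 of the 40 members. Entries were missing for 10 members, among them Cars, Hars, Hars2, Lars, Nars, Pars2, Rars, Vars and Wars. The composite letters TGATGCAA, read on both strands, occurred in the windows of 4 members (Aars, Iars, Tars and Yars, 13.3% of the 30) and in those of 1.03% of all 27025 genes with a window. With any base at the sixth place (TGATGNAA, which includes the former) there were 5 members, now with Gars, 16.7% of the 30, and 4.51% of all genes. The E-box CACGTG occurred in 5 members (Aars, Ears2, Farsb, Iars and Tars, 16.7%) and in 8.09% of all genes. The letters TGACGTCA, a cAMP response element, were in 0 member windows and in 2.03% of all genes. The stretches around the composite letters are shown for 4 of these members, because they place the letters relative to the start, with the matching letters in capitals and each sequence read 5′ to 3′ on the strand of the gene:
Iars, chr13:49682126-49682155, plus strand: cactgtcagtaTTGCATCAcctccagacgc
Tars, chr15:11399655-11399684, minus strand: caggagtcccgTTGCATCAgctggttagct
Yars, chr4:129189895-129189924, plus strand: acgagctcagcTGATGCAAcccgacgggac
Gars, chr6:55037960-55037989, plus strand: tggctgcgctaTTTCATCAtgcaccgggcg

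The capitals begin 15 bases before the annotated start in Tars and 30 before it in Gars, and 7 bases after it in Iars and 3 after it in Yars. In Aars, not shown, the composite letters begin farther away, 112 bases before the start, and another TGATGNAA match begins 9 bases after it. Aars, Iars and Tars hold both the E-box and the composite letters. Of these Iars had the largest KO to WT change, and its whole window (chr13:49681880-49682179, plus strand) is given with the E-box first and the composite letters second in capitals:
Iars: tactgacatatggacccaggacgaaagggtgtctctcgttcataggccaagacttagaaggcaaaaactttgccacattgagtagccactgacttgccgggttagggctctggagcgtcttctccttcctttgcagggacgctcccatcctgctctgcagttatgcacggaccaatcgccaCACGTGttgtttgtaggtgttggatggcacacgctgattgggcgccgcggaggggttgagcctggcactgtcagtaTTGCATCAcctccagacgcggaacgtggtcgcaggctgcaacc
A match of letters is a description of the window and no evidence of binding. The 5 members with composite letters did not share 1 size of change between KO and WT in ERT2 cells. Gars rose by 0.43, Iars by 0.39, Yars by 0.34 and Aars by 0.12, while Tars had a change of 0.07 and was not called.

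The state of the libraries bears on what follows. The 12 library medians lay between 9.06 and 9.11, and sequencing depth is unknown. Ikzf1 mRNA was 1.01 higher in ERT2 KO than in ERT2 WT libraries, and Ikzf3 mRNA was 0.65 lower. The paper reports that western blots showed the Ikaros factors deleted in lines grown from single cells, and the values here are mRNA, not protein. Ctnnb1 mRNA changed by 0.06 (not called) and 0.13 between Cre-ERT2 and ERT2 libraries in WT and KO cells, and KO below means the libraries labelled so. All 10 pre-B markers were in the table. Their summed level (log2 of the sum) was 16.66 to 16.70 in WT and 16.29 to 16.33 in KO libraries. In ERT2 cells 6 of the 10 were called lower in KO, among them Cd79a (-0.79) and Dntt (-0.87), while Rag1 (0.32) and Rag2 (0.38) were called higher and Pax5 and Ebf1 were not called. In Cre-ERT2 cells 7 were lower, Rag1 (0.34) and Rag2 (0.44) were higher, and Igll1 was not called. Of 8 myeloid markers 3 were in the table (Lyz2, Itgam and Cd68, but not Csf1r, Fcer1g, Adgre1, Mpo or Elane), and their summed level was 7.73 to 7.77 in WT, 8.54 to 8.62 in ERT2 KO and 8.73 to 8.83 in Cre-ERT2 KO libraries. Lyz2 alone was 0.99 and 1.23 higher in KO, while Itgam was 0.15 and 0.18 lower. Itgam (4.51 to 4.74) and Cd68 (4.45 to 4.54) lie near the lower end of the table, where counts would be needed to judge a change. Of the T cell (5), erythroid (5) and stromal (4) markers, 0 were in the table. In such bulk libraries, a change in the number of cells of a type and a change in RNA per cell cannot be told apart. The marker levels moved with KO, as did the members, and their part in the changes of the members was not tested.

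The first question was how the synthetase mRNAs differ between KO and WT cells when β-catenin is left alone. In ERT2 cells 26 of the 40 members were called (limma, Benjamini-Hochberg adjusted p under 0.05 over all 12151 genes), 23 of them higher and 3 lower in KO. Over all genes 59.0% were called, 29.8% higher and 29.3% lower, so the number of calls among members was near the background while the balance was 57.5% higher against 7.5% lower. With each library centered on its median, all genes split into 2866 higher and 4747 lower, against 3616 and 3559 here, and the members into 23 and 5. The median change of the members was 0.12, beside 0.0016 over all genes. Averaged over the 40 members, the log2 value was 10.684 ± 0.0086 (SD, n = 3) for WT and 10.875 ± 0.0017 (SD, n = 3) for KO.

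**Figure D1:**
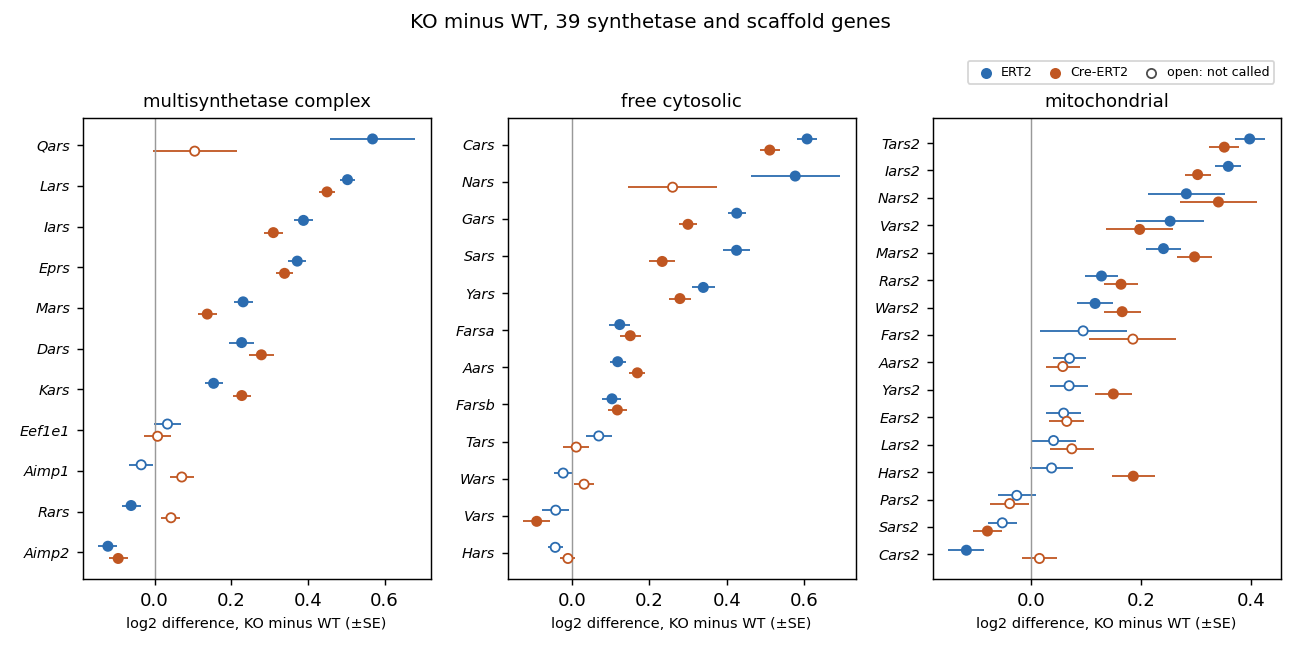
Change between KO and WT (log2 difference ± SE, horizontal axis) of 39 members in ERT2 (blue) and Cre-ERT2 (orange) cells, grouped by place in the cell; filled points were called and open points were not. Most points lie to the right of 0, from -0.12 for Aimp2 to 0.61 for Cars, and the wide bars belong to Qars and Nars.

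Cars, the cytosolic cysteinyl-tRNA synthetase (ENSMUSG00000010755, GRCm38 chr7:143557230-143600090, minus strand), had a large rise in both vectors. It had values of 10.98, 10.98 and 11.04 in ERT2 WT and 11.58, 11.60 and 11.64 in ERT2 KO libraries. Every KO library was above every WT library. In comparisons of 2 groups, genes described in full were chosen for no overlap, and 7953 of all 12151 genes had none here. The rise was 0.61 (SE 0.026, adjusted p 5.75e-10, limma), or 1.52-fold. In the Cre-ERT2 libraries the values were 10.98, 10.94 and 10.95 in WT and 11.47, 11.44 and 11.49 in KO, a rise of 0.51 (SE 0.026, adjusted p 3.07e-09, limma).

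Within the multisynthetase complex, all 8 enzymes were called in ERT2 cells, 7 higher and 1 lower, with a median change of 0.30. The background over all genes was 59.0% called, 29.8% higher and 29.3% lower. Lars, which charges leucine tRNAs, read 12.27, 12.31 and 12.30 in ERT2 WT and 12.79, 12.79 and 12.81 in ERT2 KO, without overlap. It rose by 0.50 (SE 0.020, adjusted p 2.60e-10, limma). Among the others, Iars (isoleucine) rose by 0.39, Eprs (glutamate and proline in a single protein) by 0.37, Mars (methionine) by 0.23, Dars (aspartate) by 0.23 and Kars (lysine) by 0.15. The exception was Rars (arginine), with 12.10 in each ERT2 WT library and 12.06, 12.06 and 11.99 in ERT2 KO. It fell by 0.06 (SE 0.025, adjusted p 0.0498, limma), a call that was lost without any 1 of 8 of the 12 libraries (each of the 6 WT libraries, ERT2 KO replicate 3 or Cre-ERT2 KO replicate 3, adjusted p up to 0.211) and under quantile normalization.

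Qars, which charges glutamine tRNAs, was the least steady enzyme of the complex. Its values were 9.75, 9.99 and 10.09 in ERT2 WT and 10.54, 10.45 and 10.55 in ERT2 KO, without overlap. The rise of 0.57 (SE 0.11, adjusted p 0.000671, limma) had a far larger SE than that of Lars. In Cre-ERT2 cells the 3 WT libraries read 10.15, 10.39 and 10.24 and the 3 KO libraries 10.61, 10.36 and 10.12, so that the groups overlapped and the change of 0.10 was not called (adjusted p 0.439, limma).

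Nars, the free asparaginyl-tRNA synthetase, also varied between replicates. It read 11.26, 11.50 and 11.18 in ERT2 WT and 11.93, 11.95 and 11.78 in ERT2 KO, a rise of 0.58 (SE 0.11, adjusted p 0.000839, limma) without overlap. In Cre-ERT2 cells it read 11.21, 11.56 and 11.32 in WT and 11.44, 11.56 and 11.86 in KO, and the change of 0.26 was not called (adjusted p 0.0700, limma). The residual SD between replicates was 0.171 for Nars and 0.163 for Qars, against a median of 0.0359 over the members. It exceeded that of 99.4% of the 1367 genes within 0.5 of the mean of Nars, and of 99.6% of the 1917 genes around Qars.

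**Figure D2:**
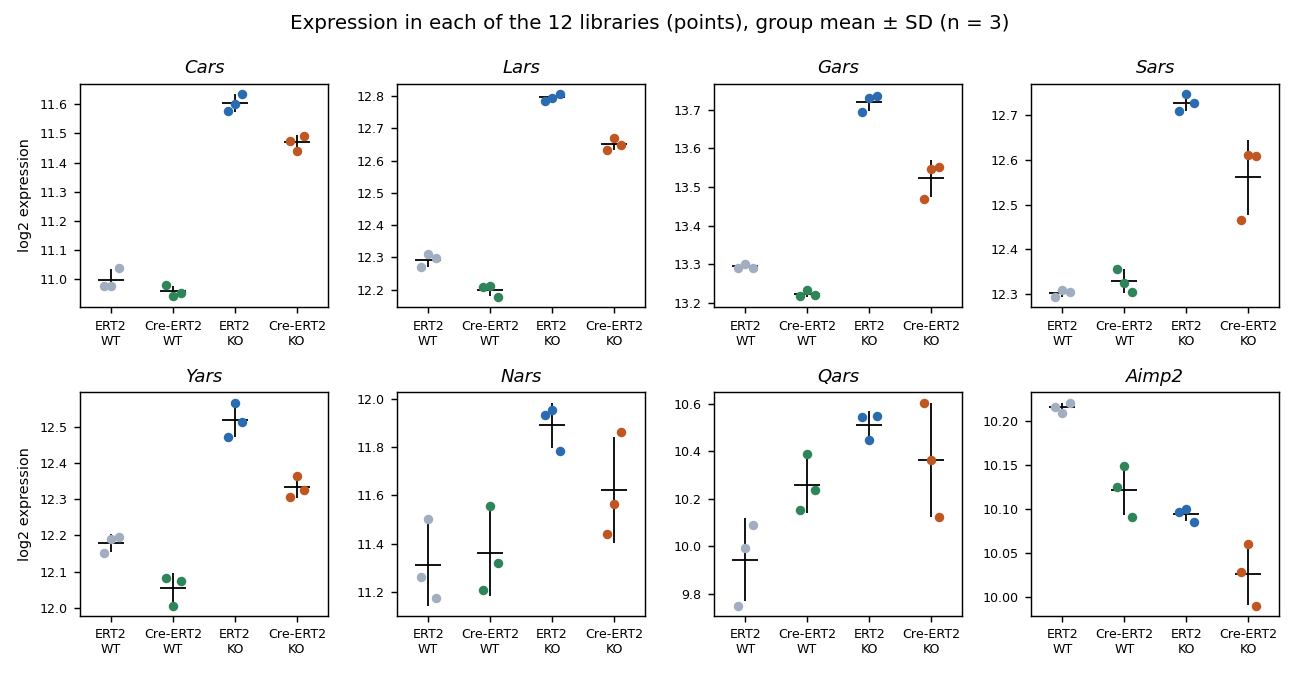
Deposited log2 expression (vertical axis, a separate range in each panel) of 8 members in the 12 libraries (points), with the mean ± SD of each group (n = 3) in black. KO libraries lie above WT libraries without overlap for Cars, Lars, Gars, Sars and Yars, the replicates of Nars and Qars scatter widely, and Aimp2 is lower in KO.

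The 3 scaffold proteins did not share the rise of the enzymes. Aimp2 (ENSMUSG00000029610, chr5:143902704-143909847, minus strand) read 10.22, 10.21 and 10.22 in ERT2 WT and 10.10, 10.10 and 10.09 in ERT2 KO libraries. These groups were apart, and Aimp2 fell by 0.12 (SE 0.025, adjusted p 0.000919, limma). In Cre-ERT2 libraries it read 10.12, 10.15 and 10.09 in WT and 10.03, 10.06 and 9.99 in KO, and it fell by 0.09 (SE 0.025, adjusted p 0.00500, limma). Neither Aimp1 (-0.03 and 0.07) nor Eef1e1 (0.03 and 0.01) was called in ERT2 or Cre-ERT2 cells. The difference between scaffolds and enzymes was not tested.

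Of the 12 free cytosolic members 8 rose in ERT2 cells and 0 fell, with a median change of 0.12. Their share of calls was 66.7%, near the 59.0% of all genes, while 29.8% of all genes were called higher. Besides Cars and Nars, Gars (glycine) rose by 0.43 from 13.29, 13.30 and 13.29 to 13.70, 13.73 and 13.73. Sars (serine) rose by 0.43 from 12.29, 12.31 and 12.30 to 12.71, 12.75 and 12.73. Yars (tyrosine) rose by 0.34, and smaller rises were called for Farsa and Farsb, the 2 subunits of the phenylalanine enzyme (0.12 and 0.10), and for Aars (alanine, 0.12). Aars shares 1326 bp of same-strand annotation with Exosc6, so reads could have been divided between them. The members that were not called were Tars (threonine, 0.07), Wars (tryptophan, -0.02), Vars (valine, -0.04) and Hars (histidine, -0.04).

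Of the 17 mitochondrial members 8 rose in ERT2 cells, 1 fell and 8 were not called, with a median change of 0.09. Their share of calls, 52.9%, was below the 59.0% of all genes. By direction it was 47.1% higher and 5.88% lower, beside 29.8% and 29.3% of all genes. Among those that rose were Tars2 (threonine, 0.40), Iars2 (isoleucine, 0.36), Nars2 (asparagine, 0.28), Vars2 (valine, 0.25), Mars2 (methionine, 0.24), Rars2 (arginine, 0.13) and Wars2 (tryptophan, 0.12, not called under quantile normalization). The gene that fell was Cars2 (cysteine), which read 7.97, 7.98 and 7.995 in ERT2 WT and 7.91, 7.84 and 7.84 in ERT2 KO and fell by 0.12 (SE 0.033, adjusted p 0.00742, limma). Aars2, Ears2, Fars2, Hars2, Lars2, Pars2, Sars2 and Yars2 were not called, with changes from -0.05 to 0.09.

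Cytosolic and mitochondrial enzymes for the same amino acid often had unlike values in the KO to WT comparison in ERT2 cells. For cysteine the changes were 0.61 (Cars) and -0.12 (Cars2). For threonine they were 0.07 (Tars) and 0.40 (Tars2). Leucine gave 0.50 (Lars) and 0.04 (Lars2), and serine gave 0.43 (Sars) and -0.05 (Sars2), so that either enzyme could be the one with the larger change. The pairs for isoleucine (Iars 0.39, Iars2 0.36) and methionine (Mars 0.23, Mars2 0.24) had nearly equal changes. Differences within pairs were not tested. By structural class, 12 of 19 class I members rose and 2 fell, and 11 of 18 class II members rose and 0 fell. Eprs, which charges 2 amino acids, was counted in class I only. The shares called, 73.7% and 61.1%, stand beside 59.0% of all genes, 29.8% higher and 29.3% lower.

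In cells with stabilized β-catenin (Cre-ERT2) the same KO to WT comparison again called 26 members, 23 higher and 3 lower, where 58.9% of all genes were called, 30.4% higher and 28.6% lower (with median centering 2983 genes higher and 4789 lower, against 3688 and 3473). The median change was 0.16 over the members and 0.0016 over all genes. This comparison shares no library with the one in ERT2 cells. In both, 21 members were called higher and 1 (Aimp2) lower, which makes 22 of 40 called in the same direction (49.0% of all genes), and 0 were called in opposite directions. Of the 23 cytosolic members 13 were higher in both, and of the 17 mitochondrial members 8. The share of all genes called higher in both was not counted separately, and the 49.0% covers both directions. The counts of members higher in both therefore have no background here and are a description only.

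Lars read 12.21, 12.21 and 12.18 in Cre-ERT2 WT and 12.63, 12.67 and 12.65 in Cre-ERT2 KO libraries and rose by 0.45 (SE 0.020, adjusted p 7.44e-10, limma). Large rises were also found for mitochondrial members. Tars2 read 10.40, 10.41 and 10.38 in WT and 10.80, 10.75 and 10.70 in KO, a rise of 0.35 (SE 0.027, adjusted p 2.06e-07, limma). Nars2 read 8.57, 8.54 and 8.31 in WT and 8.85, 8.80 and 8.79 in KO, a rise of 0.34 (SE 0.069, adjusted p 0.000988, limma). In both genes every KO library exceeded every WT library. Eprs rose by 0.34, Iars by 0.31, Iars2 and Gars by 0.30, and Mars2 by 0.30, while Hars2 (0.19) and Yars2 (0.15) were called in Cre-ERT2 but not in ERT2 cells, a contrast whose own test did not pass (adjusted p 0.188 for Hars2 and 0.445 for Yars2, limma).

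Of the falls in Cre-ERT2 cells, those of Vars and Sars2 were less secure than that of Aimp2. Vars (free cytosolic, valine) read 14.03, 14.02 and 13.95 in WT and 13.86, 13.92 and 13.94 in KO and fell by 0.09 (SE 0.034, adjusted p 0.0357, limma). The call was lost without Cre-ERT2 WT replicate 1 or 2 or Cre-ERT2 KO replicate 1 or 2 (adjusted p up to 0.137), and the change was -0.0005 under quantile normalization. Sars2 (mitochondrial, serine) read 8.35, 8.43 and 8.40 in WT and 8.33, 8.32 and 8.30 in KO and fell by 0.08 (SE 0.026, adjusted p 0.0200, limma), a call lost without Cre-ERT2 WT replicate 2 or 3 or Cre-ERT2 KO replicate 3 (adjusted p up to 0.0876). The rise of Vars2 (0.20) was lost without replicate 1 of Cre-ERT2 WT or of Cre-ERT2 KO (adjusted p up to 0.0634). The other 23 calls were kept when any 1 of the 12 libraries was left out.

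The second question was how the synthetase mRNAs differed between Cre-ERT2 and ERT2 libraries. This difference is called the effect of β-catenin, or a change under β-catenin, throughout. The Cre-ERT2 libraries also differ from the controls in active Cre, and possibly in drug treatment. Effects of Cre or of the drug therefore cannot be told apart from those of stabilized β-catenin, and their part was not tested. In WT cells 9 members were called, of which 0 rose and 9 fell with Cre-ERT2, where 11.9% of all genes were called, 5.93% higher and 5.95% lower. The changes were small. The median was -0.07, with 34 of 40 members below 0, beside a median over all genes of 2.18e-05. The mean of the 40 members was 10.684 ± 0.0086 (SD, n = 3) without Cre and 10.633 ± 0.010 (SD, n = 3) with it.

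Of the 9 falls, 5 were in the complex (Eprs, Kars, Lars, Rars and Aimp2), 2 were free cytosolic (Farsb and Yars) and 2 mitochondrial (Lars2 and Yars2). Farsb, a subunit of the phenylalanine enzyme, read 11.69, 11.74 and 11.68 in ERT2 and 11.57, 11.58 and 11.61 in Cre-ERT2 libraries and fell by 0.12 (SE 0.025, adjusted p 0.00780, limma). Kars read 13.02, 13.03 and 12.99 in ERT2 and 12.89, 12.91 and 12.92 in Cre-ERT2 libraries and fell by 0.11 (SE 0.024, adjusted p 0.0103, limma). Both genes were lower in every Cre-ERT2 WT library than in any ERT2 WT library.

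The largest falls in WT cells were those of Lars2, Yars2 and Yars. Lars2, the mitochondrial leucine enzyme, read 10.43, 10.52 and 10.52 in ERT2 and 10.29, 10.37 and 10.32 in Cre-ERT2 libraries and fell by 0.16 (SE 0.040, adjusted p 0.0196, limma). Yars2, the mitochondrial tyrosine enzyme, read 8.95, 8.93 and 9.01 in ERT2 and 8.85, 8.81 and 8.82 in Cre-ERT2 libraries and fell by 0.13 (SE 0.034, adjusted p 0.0228, limma). Yars, its cytosolic counterpart, read 12.15, 12.19 and 12.20 in ERT2 and 12.08, 12.01 and 12.07 in Cre-ERT2 libraries and fell by 0.13 (SE 0.029, adjusted p 0.0145, limma). The groups were apart in all 3 genes, which was a condition for describing them in full. Even so, these calls were lost without some single libraries, while the falls kept their direction. Without 1 library the change ran from -0.19 to -0.15 for Lars2, from -0.15 to -0.11 for Yars2 and from -0.14 to -0.10 for Yars. Leaving out 1 WT library also lowered the calls over all genes, from 1443 to between 1026 and 1198. The call of Lars2 was lost without ERT2 WT replicate 2 or 3 or Cre-ERT2 WT replicate 1 or 3 (adjusted p up to 0.0765), that of Yars2 without ERT2 WT replicate 1 or 3 or Cre-ERT2 WT replicate 2 or 3 (up to 0.0855), and that of Yars without ERT2 WT replicate 2 or 3 or Cre-ERT2 WT replicate 2 (up to 0.0647). Rars (-0.11) lost its call without Cre-ERT2 WT replicate 1 or 2 (adjusted p up to 0.0585). Aimp2 (-0.09) lost it without any ERT2 WT replicate or Cre-ERT2 WT replicate 1 or 3 (up to 0.107). Eprs, Farsb, Kars and Lars kept theirs throughout.

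Qars had the largest change in WT cells in either direction, and it was upward. Its 3 Cre-ERT2 WT libraries (10.15, 10.39 and 10.24) lay above its 3 ERT2 WT libraries (9.75, 9.99 and 10.09). The change of 0.32 (SE 0.11) was not called (adjusted p 0.0886, limma).

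**Figure D3:**
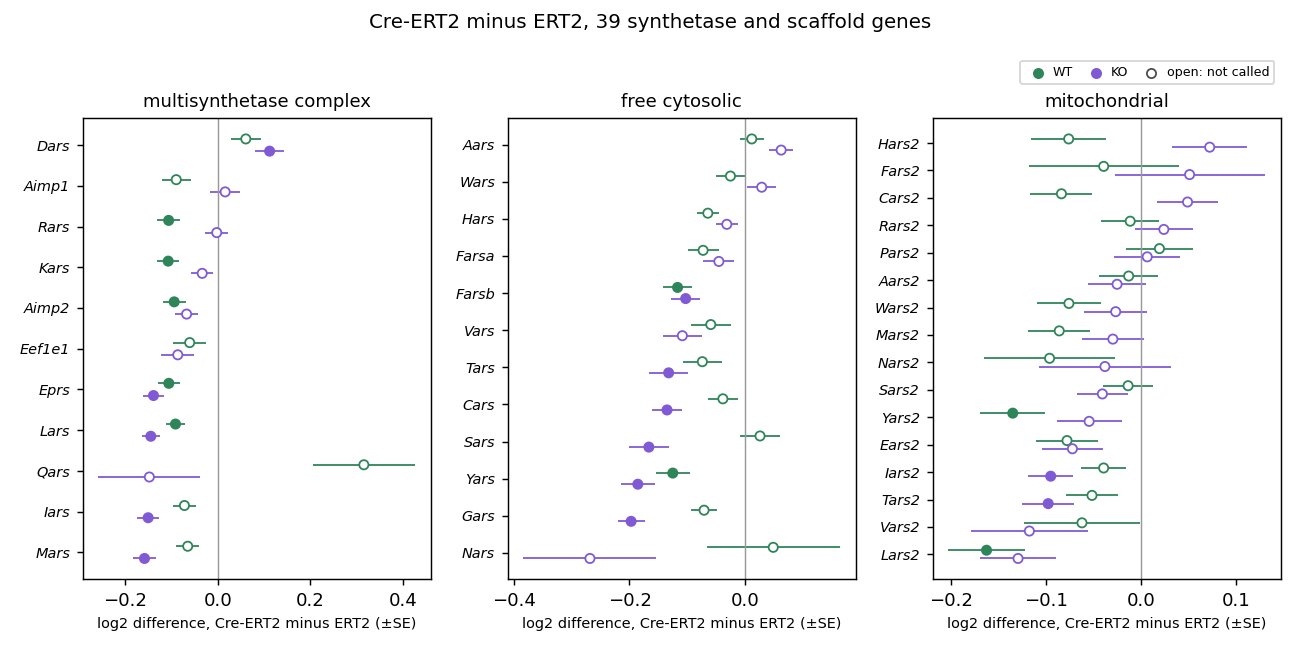
Change between Cre-ERT2 and ERT2 (log2 difference ± SE, horizontal axis, a separate range in each panel) of 39 members in WT (green) and KO (purple) cells; filled points were called and open points were not. Of the 22 called points 21 lie below 0, and Dars in KO cells is the one above it.

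In KO cells 13 members were called between Cre-ERT2 and ERT2 libraries, 1 higher and 12 lower, where 12.6% of all genes were called, 7.27% higher and 5.33% lower. The median change was -0.07, with 31 of 40 members below 0, beside -0.0004 over all genes. Of the 12 falls, 4 were complex enzymes (Eprs, Iars, Lars and Mars), 6 were free cytosolic (Cars, Farsb, Gars, Sars, Tars and Yars) and 2 mitochondrial (Iars2 and Tars2). The median was -0.11 over the 23 cytosolic and -0.04 over the 17 mitochondrial members. Nars had the lowest value, -0.27, with a wide error, and was not called (adjusted p 0.166, limma).

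Gars had the largest called fall in KO cells. It read 13.70, 13.73 and 13.73 in ERT2 and 13.47, 13.55 and 13.55 in Cre-ERT2 libraries, and it fell by 0.20 (SE 0.023, adjusted p 0.000105, limma). Yars read 12.47, 12.57 and 12.51 in ERT2 and 12.31, 12.36 and 12.33 in Cre-ERT2 libraries and fell by 0.19 (SE 0.029, adjusted p 0.00105, limma). In both genes the Cre-ERT2 KO libraries lay below the ERT2 KO libraries and above every WT library.

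Of the complex enzymes, Mars read 12.28, 12.24 and 12.27 in ERT2 and 12.14, 12.11 and 12.06 in Cre-ERT2 libraries and fell by 0.16 (SE 0.025, adjusted p 0.000937, limma). Iars read 13.44, 13.46 and 13.46 in ERT2 and 13.29, 13.27 and 13.34 in Cre-ERT2 libraries and fell by 0.15 (SE 0.024, adjusted p 0.00120, limma). Eprs and Lars fell by 0.14 each. None of these 4 enzymes had overlapping groups, which also held for 3440 of all 12151 genes. The Mars gene shares 68 bp of annotation with Ddit3 on the opposite strand.

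Dars went the other way. It read 12.79, 12.79 and 12.82 in ERT2 and 12.84, 12.90 and 13.00 in Cre-ERT2 libraries, and it rose by 0.11 (SE 0.032, adjusted p 0.0391, limma). This call was lost with median centering (adjusted p 0.0692) and without any 1 of 10 of the 12 libraries, all but ERT2 WT replicate 2 and Cre-ERT2 KO replicate 1 (adjusted p up to 0.114).

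Of the other calls in KO cells, 4 were lost without 1 library. Farsb (-0.10) was lost without ERT2 KO replicate 2 or Cre-ERT2 KO replicate 1 (adjusted p up to 0.0592). Iars2 (-0.09) was lost without ERT2 KO replicate 1 or 2 or Cre-ERT2 KO replicate 3 (up to 0.0888). Tars (-0.13) was lost without ERT2 KO replicate 1 or 3 or Cre-ERT2 KO replicate 1 or 2 (up to 0.0871), and Tars2 (-0.10) without ERT2 WT replicate 1, any ERT2 KO replicate or Cre-ERT2 KO replicate 2 or 3 (up to 0.144). The comparisons in WT and in KO cells share no library, but both take their spread from 1 fit to all 12 libraries. Eprs, Farsb, Lars and Yars, 4 of 40 members, were called lower in both, where 4.68% of all genes were called in the same direction in both.

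The third question was whether the effect of β-catenin differed between KO and WT cells. The difference of the 2 effects was called for 1 member, Sars, where 4.53% of all genes were called, 2.71% higher and 1.82% lower. At an unadjusted p under 0.05 there were 11 members (27.5%), beside 17.3% of all genes. Sars read 12.29, 12.31 and 12.30 in ERT2 WT and 12.36, 12.32 and 12.30 in Cre-ERT2 WT, and these overlapping groups differed by 0.03, which did not pass (adjusted p 0.717, limma). In KO cells it read 12.71, 12.75 and 12.73 in ERT2 and 12.46, 12.61 and 12.61 in Cre-ERT2 libraries and fell by 0.17 (SE 0.034, adjusted p 0.00664, limma). Cre-ERT2 KO replicate 1 was the lowest of the KO libraries. The difference was -0.19 (SE 0.048, adjusted p 0.0442, limma), and it lost its call without any 1 of 9 libraries, all but those of Cre-ERT2 KO (adjusted p up to 0.109). The other members were not called. Of these Gars (-0.13, adjusted p 0.0511, limma) had the lowest p, and Qars (-0.46, adjusted p 0.132) and Nars (-0.32, adjusted p 0.352) had larger differences than Sars, with wide errors.

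The synthetases were set beside 35 other genes of the amino acid response, among them transcription factors, amino acid transporters and enzymes of amino acid synthesis, of which 34 were in the table. In ERT2 cells 33 of them differed between KO and WT, 29 higher and 4 lower, where 59.0% of all genes were called, with a median change of 0.41. In Cre-ERT2 cells 25 were higher and 1 lower, where 58.9% of all genes were called, with a median of 0.33. In both comparisons 25 were higher and 1 lower, where 49.0% of all genes were called in the same direction. Atf4 itself read 12.09, 12.09 and 12.22 in ERT2 WT and 12.60, 12.65 and 12.58 in ERT2 KO libraries. It rose by 0.48 (SE 0.041, adjusted p 5.61e-07, limma) in ERT2 cells and by 0.38 in Cre-ERT2 cells.

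The largest rises on that list were those of Vldlr, a lipoprotein receptor (2.89 in ERT2 and 3.21 in Cre-ERT2 cells), Stc2, a secreted glycoprotein (1.79 and 1.68), and Gpt2, the mitochondrial alanine aminotransferase (1.29 and 1.05). The falls in ERT2 cells were those of Cebpb (-0.59), Slc38a2, a transporter of neutral amino acids (-0.41), Herpud1 (-0.16) and Slc7a11 (-0.06). Slc38a2 fell in Cre-ERT2 cells as well (-0.45). Cebpb, with values of 5.18 to 5.92, and Slc7a11, with 3.75 to 3.85, lie near the lower end of the table, where counts would be needed to judge a change.

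**Figure D4:**
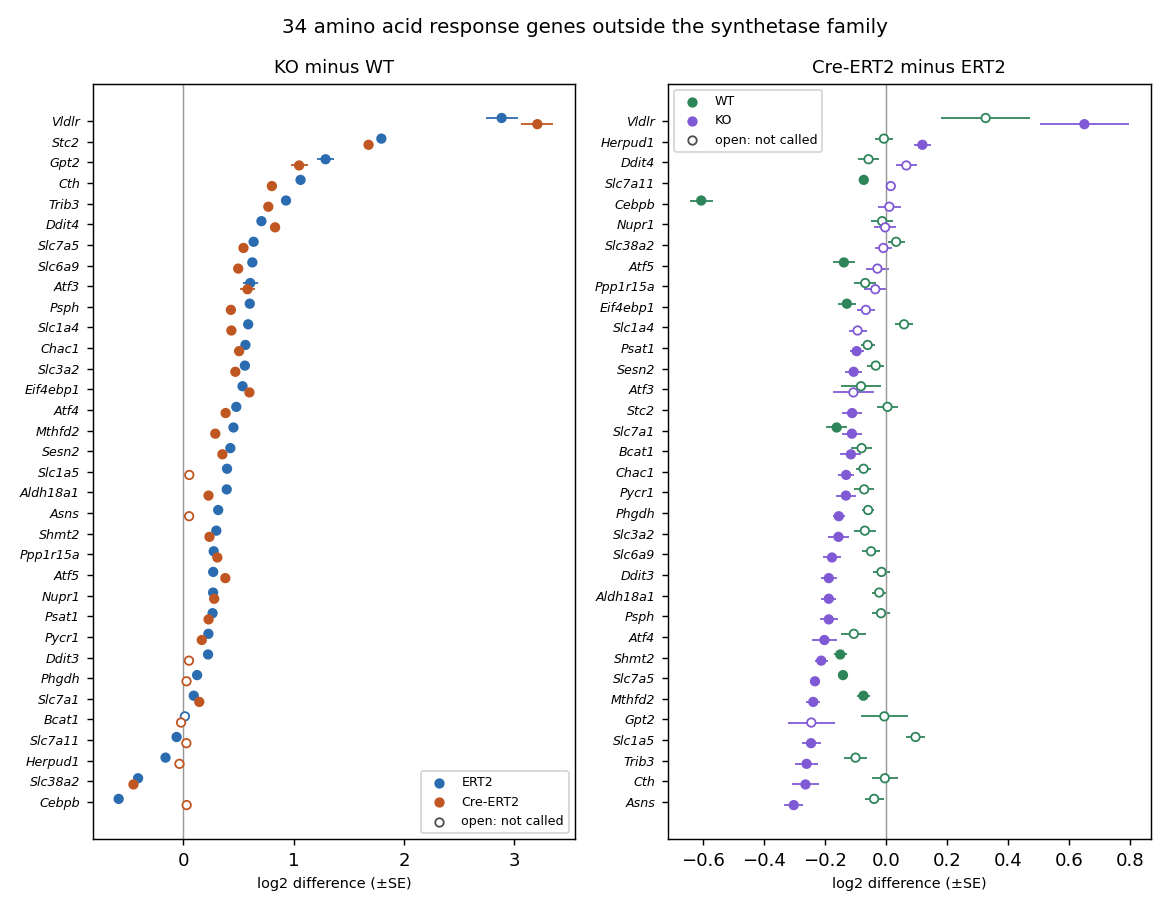
Changes (log2 difference ± SE, horizontal axes) of the 34 amino acid response genes outside the synthetase family, between KO and WT at left (blue, ERT2; orange, Cre-ERT2) and between Cre-ERT2 and ERT2 at right (green, WT; purple, KO); filled points were called. At left most points lie above 0, up to 3.21 for Vldlr, and at right 21 of the 34 genes were called lower in KO cells.

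Under stabilized β-catenin 8 of the 34 genes were called in WT cells, 0 higher and 8 lower, where 11.9% of all genes were called and 5.95% were lower. In KO cells 23 were called, 2 higher and 21 lower, where 12.6% of all genes were called and 5.33% were lower. In WT cells the largest falls were those of Cebpb (-0.61), the arginine transporter Slc7a1 (-0.16) and Shmt2, which feeds serine into mitochondrial one-carbon metabolism (-0.15). In KO cells Asns, which makes asparagine, fell by 0.30, Cth, which makes cysteine, by 0.27 and the pseudokinase Trib3 by 0.26, while Vldlr (0.65) and Herpud1 (0.12) rose. The call of Herpud1 was lost without ERT2 KO replicate 1 or 2 (adjusted p up to 0.0638). Asns read 12.83, 12.92 and 12.89 in ERT2 KO and 12.51, 12.62 and 12.61 in Cre-ERT2 KO libraries, and 12.52 to 12.58 in the 6 WT libraries.

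Of the 34 genes, 9 were called for a β-catenin effect that differed in size between the backgrounds, 2 higher and 7 lower, where 4.53% of all genes were called. It was -0.34 for Slc1a5, a glutamine transporter, -0.26 for Asns and -0.26 for Cth, and 0.62 for Cebpb, whose values lie near the lower end of the table. That of Cth lost its call without any 1 of 7 libraries (ERT2 WT replicate 1 or 2, Cre-ERT2 WT replicate 1 or 3, or any ERT2 KO replicate, adjusted p up to 0.0847). The list was written with earlier results of these data known, and the counts are a description.

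Other genes of tRNA charging and of its sensing were counted in the same way. Of 14 accessory genes (deacylases, amidotransferase subunits and synthetase-like proteins) 8 rose and 2 fell between KO and WT in ERT2 cells, and 7 rose and 1 fell in Cre-ERT2 cells. These 10 and 8 calls lie near the shares of all genes called (59.0% and 58.9%). The threonyl-tRNA synthetase-like gene Tarsl2 rose by 0.35 and 0.39, and Qrsl1, a subunit of the mitochondrial glutaminyl-tRNA amidotransferase, fell by 0.15 and 0.27. Under β-catenin 1 of the 14 was called, lower, in each background, where 5.95% (WT) and 5.33% (KO) of all genes were called lower. Of 11 genes around eIF2, 5 rose and 2 fell in ERT2 cells and 5 rose and 0 fell in Cre-ERT2 cells, also near or below those shares. Eif2ak4 read 9.72, 9.62 and 9.64 in ERT2 WT and 10.29, 10.35 and 10.33 in ERT2 KO libraries. It rose by 0.66 (SE 0.031, adjusted p 1.29e-09, limma) there and by 0.68 in Cre-ERT2 cells. Under β-catenin 3 of the 11 fell in WT and 2 in KO cells, beside 5.95% and 5.33% of all genes.

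Myc, a regulator of growth genes, is given for context. It read 12.22, 12.21 and 12.20 in ERT2 WT, 11.56, 11.62 and 11.58 in Cre-ERT2 WT, 13.30, 13.31 and 13.31 in ERT2 KO and 13.00, 12.99 and 13.01 in Cre-ERT2 KO libraries. The 4 groups of Myc were far apart, with changes of 1.10 and 1.41 between KO and WT and of -0.62 and -0.31 under β-catenin. The means of the 40 members lay in the same order, at 10.684, 10.633, 10.875 and 10.809 in these groups. Whether the levels of Myc or Atf4 had a part in the levels of the members was not tested. Eprs and Iars2, which lie 33648 bp apart on chromosome 1 on opposite strands, had changes of 0.37 and 0.36 in ERT2 cells.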

How the data were processed

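Stranded polyA libraries had an input of 280 ng and were amplified over 10 PCR cycles. Cells were taken at day 1 of 4-OHT if the protocol's text, which describes chromatin work, also holds for RNA. Per the labels and the study's methods, the authors quantified reads with Salmon 1.4.0, aligned them with STAR 2.7.6 to mm10 and used DESeq2 1.30.1, with GENCODE M24. The deposited values are log2 expression, 1 per gene and library, normalized between libraries. The transformation and the filter on genes are not stated, and with no counts the depth is unknown, so replicates alone give the precision. Weakly expressed genes may be compressed. Groups came from the sample titles.

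A linear model with 4 group means was fitted to all 12 libraries and 12151 genes with limma 3.58.1 in R 4.3.3 (lmFit, eBayes with a mean trend) for 5 contrasts, with Benjamini-Hochberg adjustment over all genes and calls at an adjusted p under 0.05. It was checked on simulated data. An exact 2-sided permutation test of 3 against 3 libraries cannot go below 0.1. The members and lists were chosen with earlier results of these data known. Described in full were, per contrast, up to 5 called rises and 5 called falls whose groups do not overlap, and outside the members Ikzf1, Ikzf3, Ctnnb1, Myc, Atf4 and up to 3 rises and 3 falls of the amino acid response list. The absence of overlap in these members follows from that choice. Over all genes, groups without overlap numbered 3776 (β-catenin in WT), 3440 (β-catenin in KO), 7953 (KO to WT, ERT2) and 7727 (KO to WT, Cre-ERT2). Results for 1 member and 1 promoter sequence are not reported here, while counts and medians cover all 40 members. Other genes were named for their role or pairing after their values were seen. Positions come from GENCODE M21 (GRCm38, matched for 40 of 40 members) and sequences from RefSeq (GRCm38.p6). No 2 libraries held identical values. Alternatives were 2 other scalings, a pseudocount of 1, a mean filter of 8, a prior without trend, only the libraries compared, a replicate block, stricter thresholds and leaving out each library.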

Additional observations from a re-analysis of the deposited data

Results flagged for a closer look

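The Cre-ERT2 to ERT2 change, called the β-catenin effect here, differed between KO and WT cells for 1 synthetase, Sars, with a difference of -0.19. The test was that of the difference itself (limma, adjusted over all genes). Effects of Cre or of the drug are not separated from β-catenin in it. Of the amino acid response genes, the difference was -0.34 for Slc1a5, -0.26 for Asns, -0.26 for Cth, -0.17 for Ddit3, -0.17 for Psph, -0.17 for Aldh18a1, -0.16 for Mthfd2, 0.089 for Slc7a11 and 0.62 for Cebpb. Those of Slc1a5, Asns, Mthfd2 and Cebpb kept their calls without any 1 library, and the other 5 did not. Cebpb and Slc7a11 lie near the lower end of the table, where counts would be needed to judge a change. Cebpb averaged 5.80 in ERT2 WT, 5.19 in Cre-ERT2 WT, 5.21 in ERT2 KO and 5.22 in Cre-ERT2 KO libraries, so a fall in KO cells might not show. For Myc the difference was 0.31, and for Ikzf1 it was -0.10.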

How the results depend on the processing

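No change of the 28 single-gene results described in full reversed under any setting. The number of members called moved by over 1.5 times in these settings. With only the compared libraries in the fit, 7 members were called under β-catenin in KO cells, and 934 of all genes against 1531. In WT cells the same setting called 1274 of all genes against 1443. Among genes with a mean above 8, the median absolute difference between 2 replicates was 0.042 to 0.054 in Cre-ERT2 KO. It was 0.036 to 0.043 in the other groups. At an adjusted p under 0.01 there were 3 in WT and 8 in KO cells and 0 for the difference, and for the amino acid response list 5, 14 and 3. For the difference of the effects, quantile normalization gave 2 members and a prior without trend 0, with 508 and 558 of all genes against 550. Without 1 library, members called ranged from 6 to 13 (β-catenin in WT), 10 to 13 (β-catenin in KO), 25 to 27 (KO to WT, ERT2), 24 to 27 (KO to WT, Cre-ERT2) and 0 to 3 (difference), and list genes called from 6 to 9, 16 to 23, 32 to 33, 26 to 27 and 4 to 9. In the same order, calls over all genes ranged from 1026 to 1659, 1050 to 1458, 6609 to 7314, 6690 to 7157 and 383 to 595. Of 586 alternative values for the 28 single-gene results described in full, 518 stayed on their side of the threshold and 68, in 11 results, lost the call with the same direction. The cause was not tested.

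Centering each library on its median moved the median change of all genes between KO and WT from 0.0016 to -0.03, which turns its sign, and the calls to 2866 higher and 4747 lower (ERT2) and 2983 and 4789 (Cre-ERT2). Among members it gave 23 higher and 5 lower, and 23 and 3.

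Replicate numbers did not pair the libraries. Same-numbered libraries had correlations of their deviations from -0.091 to 0.313 (median -0.0055), of which 2 of 18 were over 0.1, and other-numbered ones from -0.355 to 0.356. The strongest lay between the Cre-ERT2 libraries of the 2 backgrounds. WT replicate 1 gave 0.313 with KO replicate 1 and -0.333 with KO replicate 3. WT replicate 2 gave 0.356 with KO replicate 3 and -0.355 with KO replicate 1. The next in size was 0.132, and what these libraries share was not tested. With the replicate block, 10, 13, 25 and 27 members were called in the first 4 comparisons in the order above and 0 for the difference, and Rars lost its call in ERT2 cells (adjusted p 0.0696). Calls over all genes then numbered 1361, 1374, 7089 and 7108, and 424 for the difference. Depth is unknown, and the deposited values set no limit of detection.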
